A study of Rattus norvegicus with 6 samples.

Results

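Lysosomal hydrolases, lysosomal membrane proteins and close partners were examined as a readout of uptake of material, through 31 genes chosen by gene symbol. A gene was measured where the array annotation gave it a probe set of its own, and where several did so the brightest on average stood for it. Of the 31 genes 30 were measured, out of 14217 genes on the array, and Npc1 had no single-gene probe set.

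The lysosome is the acid compartment in which cells break down proteins, sugars and lipids taken up from outside or delivered by autophagy. Its soluble hydrolases are made in the endoplasmic reticulum, and most are tagged with mannose 6-phosphate and sorted in the Golgi. Its limiting membrane carries heavily glycosylated proteins such as LAMP1 and LAMP2, and a proton pump keeps the lumen acid. In the nervous system lysosomes are prominent in microglia, the resident phagocytes, and loss of single lysosomal enzymes causes storage diseases with neurodegeneration.

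The arrays came from dissociated spinal cord cultures of rats 1 to 4 days old, grown for 8 days on carbon nanotubes (CNT) or on a control substrate, 3 cultures each. The CNT substrate was a film of multiwalled carbon nanotubes on glass coverslips, and the control substrate was glass coated with polyornithine. Both groups came from animals within this age range, and the age for each culture is not given. Both grew in medium with horse serum and nerve growth factor. The labels give the strain as Sprague-Dawley whereas the study's methods give Wistar, and neither describes any genetic change or drug. Such cultures mix neurons, astrocytes, oligodendrocytes, microglia and fibroblast-like cells, so that on a bulk array a change in the number of cells of a type and a change in RNA per cell cannot be told apart.

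Values are log2 signals after robust multi-array averaging (RMA), so that a difference of 1 is a factor of 2. The medians of the 6 arrays lay between 8.18 and 8.25, and their highest values between 14.71 and 14.85. RMA signals of different genes depend on their probes and do not rank the mRNAs. The defining mRNAs of the labelled tissue were present: the neuronal gene Map2, for a dendritic protein, read 11.6, 11.6 and 11.0 in CNT 1, 2 and 3, against 11.5, 11.6 and 11.5 in control 1, 2 and 3, and the astrocyte gene Gfap read 14.4, 14.3 and 13.7 in CNT cultures, against 14.3, 14.3 and 13.9 in controls.

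Many lysosomal promoters in human cells hold a short palindrome, TCACGTGA, or a longer form with a further G before and a C after it (the CLEAR consensus), which is bound by TFEB, a transcription factor that drives lysosomal genes. Because the members can share this element, the windows before the transcription start were searched in RefSeq promoters of build GRCr8, each 250 bases before to 50 bases after the start. Promoters were found for 25 of the 30 measured members. The CLEAR consensus was in 0 of these 25, against 0.233% of 33469 promoters, coding and noncoding. TCACGTGA was in 3 of 25 (Lamp1, Mcoln1 and Ctsd), against 0.777% of all promoters, and its core CACGTG, which lies inside both longer forms, was in 6 of 25, against 6.42% of all. TCACGTGA was also in 20.7% of 29 promoters of genes that sort hydrolases and 12.5% of 32 for further lysosomal membrane proteins. It was in 10.5% of 19 for the proton pump, 6.45% of 31 for further hydrolases and 3.85% of 26 for autophagy. The CLEAR consensus was in 10.3% of the sorting, 3.1% of the further membrane and 6.45% of the further hydrolase promoters. All 3 motifs read the same on both strands. The stretches below show 1 or 2 matches before the start for each of the 6 genes, since these are the members that share the element, and the capitals mark TCACGTGA, or CACGTG where the longer form was not complete there (the TCACGTGA of Mcoln1 lies after its start and is not shown).
Lamp1, nearest to the start, chr16:83075079-83075118, minus strand: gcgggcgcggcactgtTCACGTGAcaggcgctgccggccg
Lamp1, farther from the start, chr16:83075106-83075145, minus strand: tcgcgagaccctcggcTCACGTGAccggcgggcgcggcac
Ctsd, chr1:206968822-206968848, minus strand: gcccctcgcccgcgtcTCACGTGAccc
Mcoln1, chr12:6358220-6358257, plus strand: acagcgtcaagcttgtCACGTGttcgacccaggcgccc
Gaa, chr10:105028272-105028309, plus strand: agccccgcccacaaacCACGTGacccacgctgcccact
Glb1, chr8:122963602-122963639, plus strand: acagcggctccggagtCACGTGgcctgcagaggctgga
Cd63, chr7:1921938-1921975, plus strand: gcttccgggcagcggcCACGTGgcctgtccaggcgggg
A match is a description of these letters and not a binding site. The 6 members whose promoter held CACGTG had a median log2 difference, CNT minus control, of 0.03, with 3 of 6 above 0, and the 19 without it had a median of 0.13, with 15 of 19 above 0.

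No lysosomal mRNA passed the test of CNT against control cultures, and for none were the 2 groups of cultures fully apart. Most members had slightly higher signals on CNT, and the largest log2 differences were 0.57 for the cathepsin gene Ctsz, 0.45 for the acid lipase gene Lipa and 0.34 for the alpha-galactosidase gene Gla. Tested with limma and Benjamini-Hochberg adjustment over all 14217 genes, 0 of the 30 members passed an adjusted p of 0.05, and the smallest adjusted p of a member was 0.999. In the same fit 0% of all genes passed, and the smallest adjusted p of any gene was 0.847. At an unadjusted p under 0.05 the count of members was 0 higher and 0 lower on CNT, against 2.41% of all genes higher and 0.71% lower, and the smallest unadjusted p of a member was 0.0734 (Ctsz). The rank product, the kind of test named in the study's methods, was run with all arrays as 1 origin, over all 9 pairs of arrays, and called 0 members, against 0.492% of all genes (65 higher and 5 lower). The methods took each sample as an origin of its own and used another probe set annotation. Run over the 3 pairs of equal replicate number it also called 0 members, against 0.654% of all genes.

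The log2 difference was above 0 for 23 of the 30 members (76.7%), against 58.5% of all genes, and its median was 0.10 over the members and 0.03 over all genes. For 0 members did every CNT culture lie above every control or every CNT culture below, whereas 5.94% of all genes lay fully above and 2.05% fully below. The spread between replicates was ordinary for the array, with a median pooled SD of 0.179 over members and 0.193 over all genes. The 95% interval of the log2 difference had a median half-width of 0.349. It excluded a 2-fold difference in either direction for 27 of the 30 members (the exceptions were Ctsz, Lipa and Ctsk) and a 1.5-fold difference for 19. Signals of 16 members averaged above 13, near the top of the array's range, and the part of this in the small differences was not tested.

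**Figure D1:**
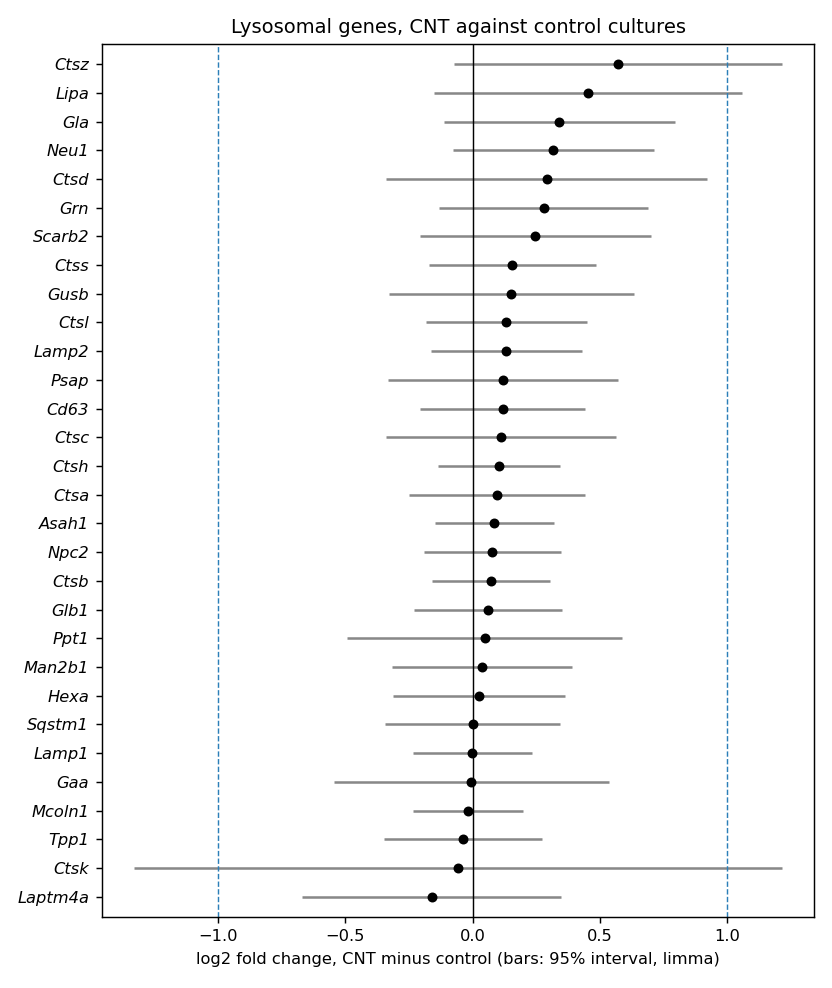
Log2 difference, CNT minus control, for each of the 30 measured members (points) with its 95% interval from limma (lines), ordered by the difference. All 30 intervals include 0, and the widest belongs to Ctsk.

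Averaged over the members, the lysosomal module read 12.91, 12.91 and 12.76 in CNT 1, 2 and 3, against 12.57, 12.77 and 12.86 in control 1, 2 and 3. The groups overlapped, because CNT 3 lay below control 2 and control 3, and control 1 was the lowest array. The means were 12.86 ± 0.09 in CNT and 12.73 ± 0.15 in control (SD, n = 3 each), a difference of 0.13 ± 0.10 (SE). Without control 1 the difference was 0.041.

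The arrays departed from their groups across many members. Control 1 gave the lowest control value for 25 of 30 members, against 25.9% of all genes, and CNT 3 gave the lowest CNT value for 21 of 30, against 45.7% of all genes. Control 3 gave the highest control value for 17 of 30, against 26.1% of all genes. Set pair by pair, the members higher in CNT 1 than in controls 1, 2 and 3 numbered 27, 25 and 21 of 30, against 52.7%, 56.6% and 60.7% of all genes. For CNT 2 they numbered 27, 24 and 22, against 55.0%, 57.4% and 62.1% of all genes, and for CNT 3 they numbered 21, 11 and 5, against 46.1%, 50.02% and 57.4%. Beside this, the log2 difference between the 3′ and 5′ probe sets for beta-actin, a measure of how far the amplified RNA reaches, was 0.92, 2.20 and 1.72 in CNT 1, 2 and 3, against 2.20, 0.621 and 0.656 in control 1, 2 and 3. It was therefore high in 2 of 3 CNT arrays and in control 1, and its part in the result was not tested.

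**Figure D2:**
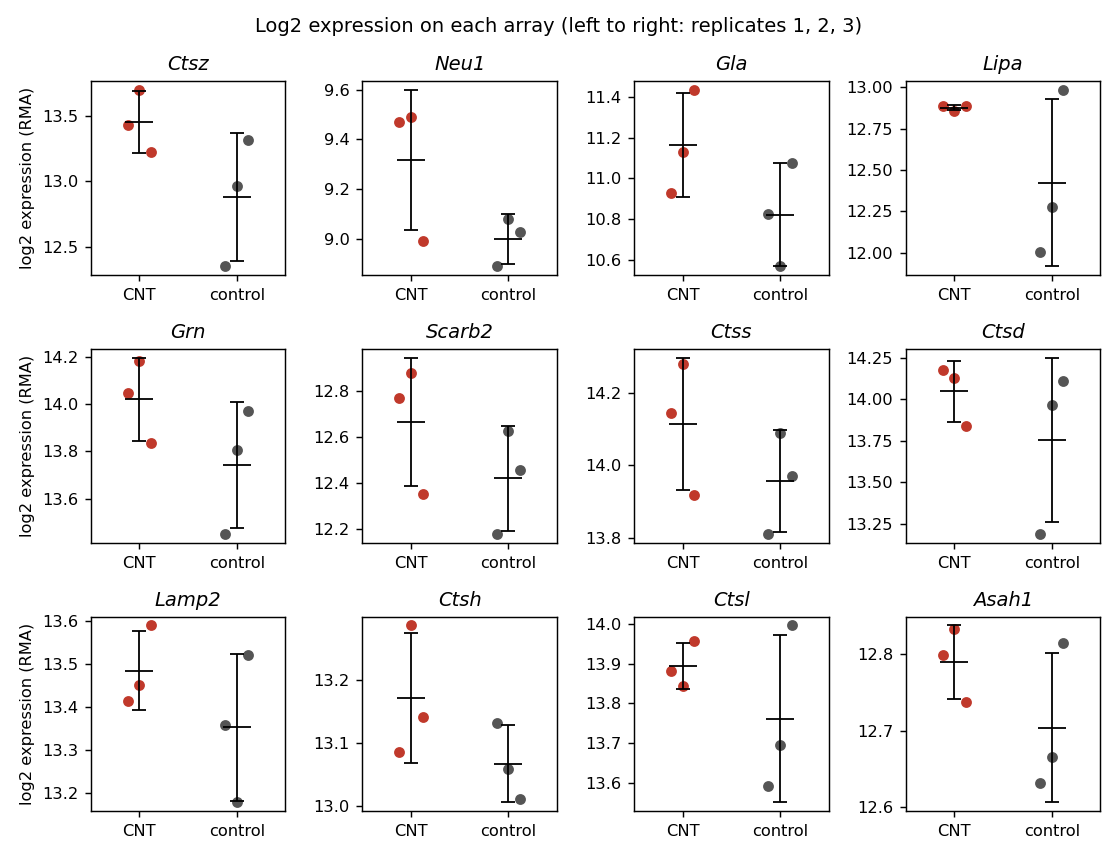
Log2 RMA signal of the 12 members with the smallest unadjusted p in each culture, with CNT left of control (points, replicates 1 to 3 from left to right; bars, group mean and SD; the vertical axes differ and do not start at 0). No panel shows CNT and control fully apart, and control 1 is the lowest point for Ctsz, Lipa, Grn and Ctsd among others.

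Cysteine cathepsins are the main endopeptidases and exopeptidases of the lysosome, and 6 of 7 had a log2 difference above 0, with a median of 0.11. Cathepsin Z is a carboxypeptidase rich in microglia and macrophages. Ctsz read 13.43, 13.70 and 13.22 in CNT 1, 2 and 3, against 12.35, 12.97 and 13.32 in control 1, 2 and 3. Only control 3 reached into the CNT range, and the difference was 0.57 ± 0.27 (SE), with a 95% interval of -0.07 to 1.22. It was 0.31 without control 1 and 0.79 without control 3.

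Cathepsin S, an elastase-like enzyme that trims the invariant chain in antigen-presenting cells, was closer. Ctss read 14.15, 14.28 and 13.92 in CNT cultures, against 13.81, 14.09 and 13.97 in controls. CNT 3 lay below controls 2 and 3, and the difference was 0.16 ± 0.13 (SE), or 0.084 without control 1 and 0.075 without CNT 2. Cathepsin H is an aminopeptidase, and Ctsh read 13.09, 13.29 and 13.14 in CNT cultures, against 13.13, 13.06 and 13.01 in controls. Control 1 was here the highest control, unlike for most members, and the difference was 0.10 ± 0.10 (SE). Cathepsin L is a broad endopeptidase, and Ctsl read 13.88, 13.84 and 13.96 in CNT cultures, against 13.59, 13.69 and 14.00 in controls. The difference was 0.13 ± 0.13 (SE), with control 3 the highest array, and the other Ctsl probe set gave 0.22.

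Ctsb, for the abundant cathepsin B, lay between 14.51 and 14.58 in CNT cultures and between 14.37 and 14.57 in controls, with a difference of 0.07. Ctsc, for cathepsin C, which activates granule proteases, differed by 0.11 ± 0.19 (SE). Ctsk, for cathepsin K, which cleaves collagen and is made by osteoclasts and fibroblasts, was the most variable member. It read 10.82, 9.98 and 12.08 in CNT cultures, against 11.15, 10.64 and 11.27 in controls, so that the lowest and the highest arrays were both CNT. The difference was -0.06 ± 0.52 (SE), with a 95% interval of -1.33 to 1.21. The mean of 16 fibroblast and meningeal markers ran in the same order within the CNT arrays, at -0.10, -1.32 and 0.32 from the mean of all arrays in CNT 1, 2 and 3, against 0.61, 0.23 and 0.27 in controls. Its part in the Ctsk values was not tested.

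The aspartic and serine peptidases numbered 3. Cathepsin D is the main aspartic protease of the lysosome, and Ctsd read 14.17, 14.13 and 13.84 in CNT cultures, against 13.19, 13.97 and 14.11 in controls. Control 1 alone lay far below the other arrays. The difference was 0.29 ± 0.26 (SE) over all arrays and 0.0093 without control 1. Ctsa, for the carboxypeptidase that protects beta-galactosidase and neuraminidase, differed by 0.10 ± 0.14 (SE). Tpp1, for the tripeptidase lost in a late infantile form of neuronal ceroid lipofuscinosis, differed by -0.04 ± 0.13 (SE).

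Of the 7 glycosidases 6 had a difference above 0, with a median of 0.06. Alpha-galactosidase A removes galactose from globotriaosylceramide and is the enzyme lost in Fabry disease. Gla read 10.93, 11.13 and 11.43 in CNT cultures, against 10.82, 10.57 and 11.07 in controls. CNT 1 lay below control 3, and the difference was 0.34 ± 0.19 (SE). The other Gla probe set gave 0.17. Neuraminidase 1 removes sialic acid, and Neu1 read 9.47, 9.49 and 8.99 in CNT cultures, against 8.89, 9.08 and 9.03 in controls. CNT 1 and CNT 2 lay above all controls and CNT 3 lay among them, with a difference of 0.32 ± 0.16 (SE). The other Neu1 probe set gave 0.15 ± 0.37 (SE).

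The other 5 glycosidases were closer to 0. Gusb, for beta-glucuronidase, differed by 0.15 ± 0.20 (SE), Glb1, for beta-galactosidase, by 0.06 ± 0.12 (SE) and Man2b1, for alpha-mannosidase, by 0.04 ± 0.15 (SE). Hexa, for the alpha chain of hexosaminidase, whose loss causes Tay-Sachs disease, differed by 0.03 ± 0.14 (SE). Gaa, for the alpha-glucosidase that degrades glycogen, differed by -0.0048 ± 0.22 (SE).

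All 5 measured members that handle lipids had a difference above 0, with a median of 0.09. Lysosomal acid lipase hydrolyses cholesteryl esters and triglycerides taken up with lipoproteins. Lipa read 12.88, 12.86 and 12.89 in CNT cultures, against 12.01, 12.28 and 12.98 in controls. The CNT cultures were nearly equal, and the controls spread from below them to just above, with a difference of 0.45 ± 0.25 (SE) and a 95% interval of -0.15 to 1.06. Leaving out control 1 gave 0.25, and leaving out control 3 gave 0.73, with an adjusted p of 0.229 in limma, the smallest adjusted p of a member under the settings tried. Acid ceramidase splits ceramide, and Asah1 read 12.80, 12.83 and 12.74 in CNT cultures, against 12.63, 12.67 and 12.81 in controls. The difference was 0.09 ± 0.10 (SE), and the other Asah1 probe set had the opposite sign, at -0.32 ± 0.52 (SE). Npc2, for the cholesterol carrier of the lysosomal lumen, differed by 0.08, Psap, for the precursor of the saposins, by 0.12, and Ppt1, for the thioesterase that removes palmitate from proteins, by 0.05.

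Among the 6 membrane proteins 3 had a difference above 0, with a median of 0.06. LIMP-2 is the receptor that carries glucocerebrosidase to the lysosome, and its gene Scarb2 read 12.77, 12.88 and 12.35 in CNT cultures, against 12.18, 12.63 and 12.46 in controls. CNT 3 lay below controls 2 and 3, and the difference was 0.25 ± 0.19 (SE), or 0.13 without control 1 and 0.14 without CNT 2. LAMP2 serves in autophagosome fusion and in chaperone-mediated autophagy. Lamp2 read 13.41, 13.45 and 13.59 in CNT cultures, against 13.36, 13.18 and 13.52 in controls. CNT 3 was its highest array, and the difference was 0.13 ± 0.12 (SE). Lamp2 and Gla had the same highest array, CNT 3, and the same lowest, control 2.

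Lamp1, a standard marker of lysosomal mass, differed by -0.0013, with a 95% interval of -0.23 to 0.23. Its other 2 probe sets, both dimmer, gave 0.28 ± 0.79 (SE) and 0.02 ± 0.09 (SE). Cd63, for a tetraspanin of late endosomes and exosomes, differed by 0.12, and Mcoln1, for the calcium channel TRPML1, by -0.02. Laptm4a, for a small late endosomal membrane protein, had the lowest difference of all members. It read 13.71, 13.02 and 13.40 in CNT cultures, against 13.29, 13.71 and 13.62 in controls, with a CNT culture as both the lowest and a joint highest array. The difference was -0.16 ± 0.21 (SE).

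Progranulin is a secreted growth factor that is taken up and cut to granulins in the lysosome. Grn read 14.05, 14.18 and 13.83 in CNT cultures, against 13.45, 13.81 and 13.97 in controls. CNT 1 and CNT 2 lay above all controls, CNT 3 lay between control 2 and control 3, and the difference was 0.28 ± 0.17 (SE), or 0.13 without control 1. Sqstm1, for the autophagy receptor p62, differed by -0.00024 ± 0.14 (SE), with the other 3 probe sets between -0.17 and 0.18.

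**Figure D3:**
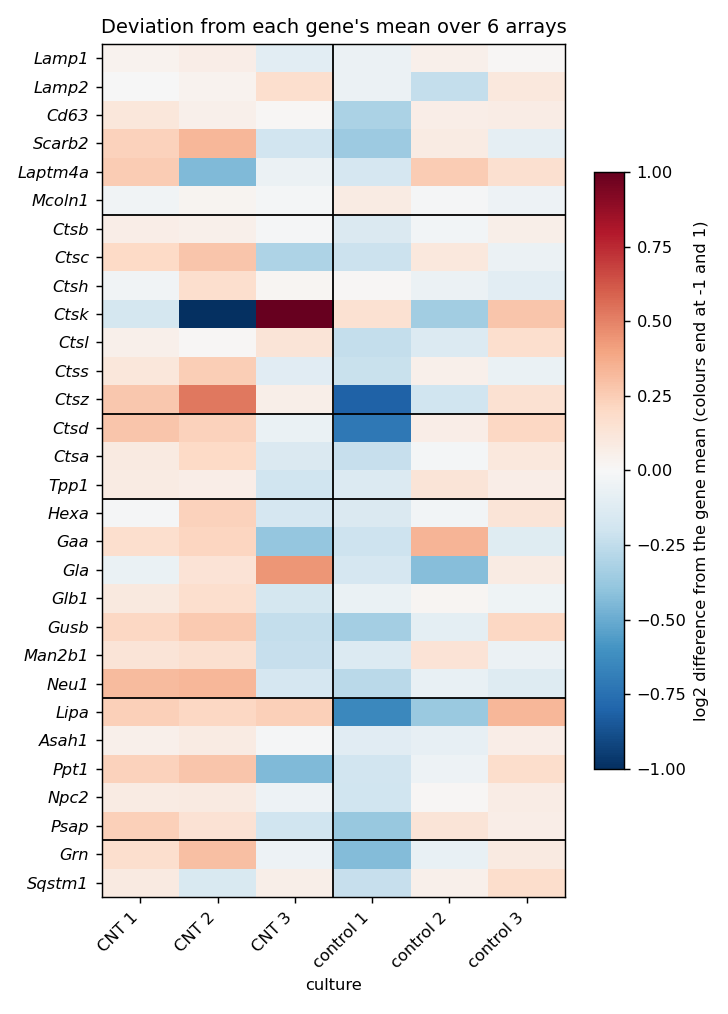
Deviation of each member's log2 signal from its mean over the 6 arrays, in CNT 1 to 3 and control 1 to 3, grouped by role. Control 1 is below the mean for most members, and Ctsk stands out with its lowest and highest values both in CNT cultures.

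Other lysosomal hydrolases, membrane proteins and subunits of the proton pump also gave their lowest mean in control 1. Of 38 further soluble hydrolases and cofactors 32 had a difference above 0, with a median of 0.16 (0.083 without control 1), and 0 were under an unadjusted p of 0.05 in either direction. The largest differences among their named genes were 0.54 ± 0.32 (SE) for the cathepsin gene Ctso and 0.53 ± 0.28 (SE) for Acp5, an acid phosphatase of osteoclasts and macrophages, and Napsa, for an aspartic protease, gave 0.17 ± 0.11 (SE). The mean of the 38 deviated by 0.08, 0.21 and -0.03 in CNT 1, 2 and 3, against -0.24, -0.10 and 0.09 in control 1, 2 and 3. Of 35 further membrane proteins and transporters 25 were above 0, with a median of 0.08 (0.053 without control 1). At an unadjusted p under 0.05, 4 of them were higher and 0 lower on CNT, against 2.41% and 0.71% of all genes. The adjusted count was 0, and 5 of the 35 had every CNT culture above every control, against 5.94% of all genes. Vamp8, for a vesicle fusion protein of late endosomes, read 12.51, 12.61 and 12.56 in CNT cultures, against 11.82, 12.01 and 12.28 in controls. All CNT cultures lay above all controls, and the difference was 0.52 ± 0.14 (SE), with an adjusted p of 0.999 in limma. The groups were also apart for Tmem63a, for a mechanosensitive ion channel, at 0.44 ± 0.12 (SE). Mfsd12, for a lysosomal cysteine transporter, differed by 0.66 ± 0.23 (SE). Its groups were only narrowly apart, with CNT 1 at 12.08 and control 3 at 12.07. The macrophage marker Cd68, itself a lysosomal glycoprotein, read 14.01, 14.10 and 13.81 in CNT cultures, against 13.06, 13.61 and 13.99 in controls, which overlapped.

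Of 23 subunits of the V-ATPase, the proton pump of the lysosome, 17 were above 0, with a median of 0.09 (0.0052 without control 1 and 0.198 without control 3), and 0 were under an unadjusted p of 0.05. Tcirg1, for an a subunit enriched in osteoclasts and macrophages, had the largest difference there, 0.41 ± 0.23 (SE). Atp6v1h and Atp6v0a4, for 2 further subunits, gave 0.24 ± 0.15 (SE) and 0.21 ± 0.13 (SE). TFEB, mTORC1 and other lysosomal signalling genes had a median of 0.05 over 24, with 15 above 0. The related transcription factors gave 0.35 ± 0.17 (SE) for Tfeb, 0.22 ± 0.11 (SE) for Tfe3 and 0.54 ± 0.26 (SE) for Tfec. For Tfec all CNT cultures lay above all controls, but narrowly, with CNT 3 at 10.14 and control 3 at 10.13. Autophagy genes had a median of 0.02 over 29, with 16 above 0. Those named by the smallest unadjusted p gave -0.19 ± 0.11 (SE) for Rb1cc1, a scaffold of the initiating kinase, 0.29 ± 0.20 (SE) for the conjugation enzyme Atg7 and 0.11 ± 0.09 (SE) for Atg14, a subunit of the lipid kinase complex. All CNT cultures also lay above all controls for Atp6v1h and Atg14, as they did for 5.94% of all genes. For Atp6v1h the gap was narrow, with CNT 2 at 11.82 and control 3 at 11.81.

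Genes that sort hydrolases to the lysosome had a median of 0.05 over 31, and the 2 lowest were sorting receptors. Igf2r, for the large mannose 6-phosphate receptor, read 11.25, 10.50 and 11.51 in CNT cultures, against 12.33, 12.16 and 11.88 in controls. Sorl1, for a sorting receptor of the retromer route, read 10.12, 10.09 and 9.41 in CNT cultures, against 11.09, 10.38 and 10.33 in controls. For both genes every CNT culture lay below every control. Of the 31 genes 2 lay fully below and 3 fully above, against 2.05% and 5.94% of all genes, and 23 had a difference above 0. The differences were -1.04 ± 0.28 (SE) for Igf2r and -0.73 ± 0.28 (SE) for Sorl1, and limma gave both an adjusted p of 0.999. M6pr, for the small mannose 6-phosphate receptor, differed by 0.15 ± 0.12 (SE), and Vps18, for a tethering subunit of late endosomes, by 0.41 ± 0.15 (SE). For Vps18 every CNT culture lay above every control.

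Cystatins and other inhibitors of cathepsins had a median of 0.16 over 11, with 7 above 0. Cst7, for cystatin F, which is made by activated microglia and restrains cathepsin C, read 8.35, 8.66 and 9.39 in CNT cultures, against 6.56, 7.15 and 8.46 in controls. CNT 1 lay just below control 3, and the difference was 1.41 ± 0.52 (SE). Cstb, for cystatin B of the cytosol, differed by 0.31 ± 0.15 (SE). A2m, for the broad protease inhibitor alpha-2-macroglobulin, differed by -0.44 ± 0.16 (SE), with every CNT culture below every control.

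**Figure D4:**
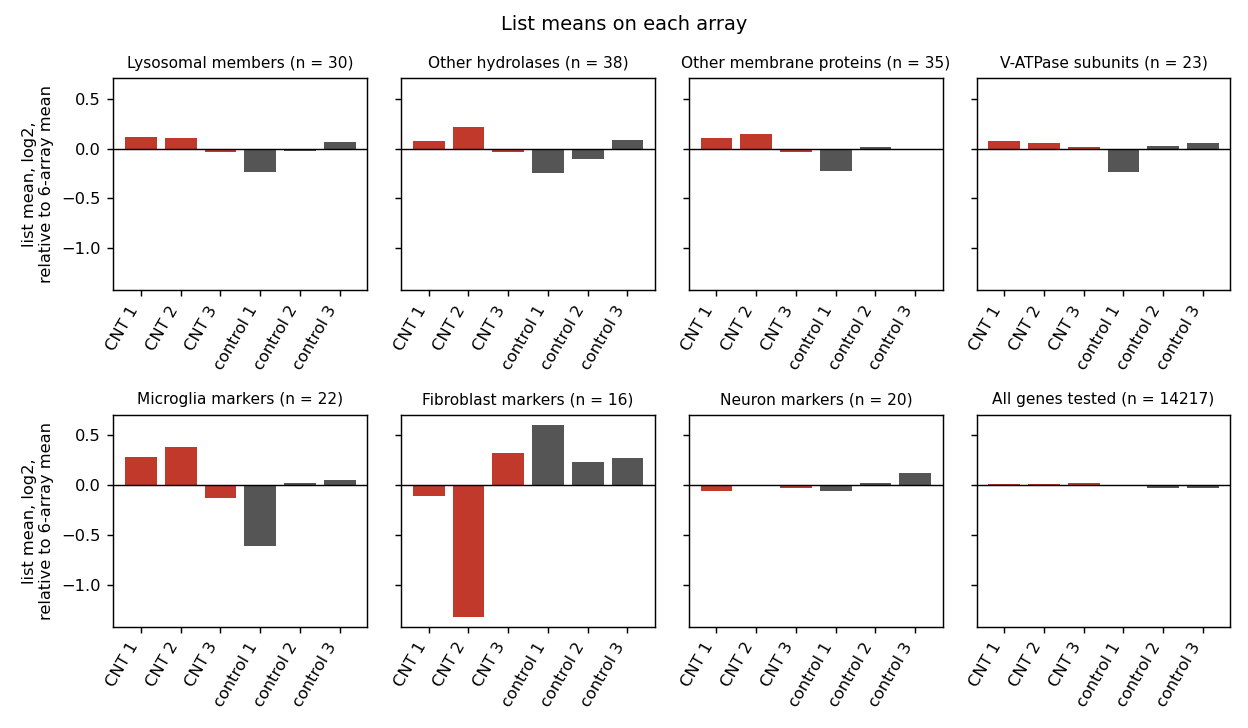
Mean log2 deviation of each gene list from its mean over the 6 arrays, in each culture (bars, log2 units), with CNT left of control. Control 1 is the lowest array for the lysosomal members, both further lysosomal lists, the V-ATPase and the microglia markers, and CNT 2 is the lowest for the fibroblast markers.

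The microglia and macrophage markers lay in a similar order over the arrays. Of 22 microglia and macrophage markers 21 had a difference above 0, with a median of 0.32 (0.11 without control 1), and their mean deviated by 0.28, 0.38 and -0.13 in CNT 1, 2 and 3, against -0.61, 0.02 and 0.05 in control 1, 2 and 3. Control 1 was the lowest array and CNT 3 the lowest CNT array, as for the lysosomal module. Aif1, for the microglial protein IBA1, read 12.87, 13.15 and 12.52 in CNT cultures, against 11.98, 12.67 and 12.78 in controls. Csf1r, for the growth factor receptor on which microglia depend, read 12.83, 13.09 and 11.81 in CNT cultures, against 12.10, 12.78 and 12.21 in controls. Both genes overlapped between the groups. Ly86, for a partner of a Toll-like receptor, differed by 0.97 ± 0.26 (SE), with every CNT culture above every control. This held for 3 of the 22 markers, against 5.94% of all genes. Itgb2, for a leukocyte integrin chain, differed by 0.85 ± 0.43 (SE) and overlapped. It read 12.24, 12.46 and 12.58 in CNT cultures, against 10.80, 11.38 and 12.55 in controls. Of 24 phagocytic and scavenger receptors 18 were above 0, with a median of 0.32 (0.11 without control 1 and 0.18 without CNT 2). The mean of the 24 deviated by 0.18, 0.29 and 0.17 in CNT 1, 2 and 3, against -0.63, -0.20 and 0.20 in control 1, 2 and 3. Control 1 was again the lowest array, but CNT 3 lay above control 2, unlike in the lysosomal module. The groups were apart for the Fc receptor gene Fcgr1a, at 0.93 ± 0.23 (SE), for Lyve1, a hyaluronan receptor of some macrophages, at 1.70 ± 0.46 (SE), and for the lipopolysaccharide receptor gene Cd14, at 0.63 ± 0.19 (SE), and limma gave all 3 an adjusted p of 0.999. These were 3 of the 24 receptors, against 5.94% of all genes fully above. Some members, among them Ctss, Ctsz and Grn, are known to be strongly expressed by microglia. The part of the microglial content of the cultures in the lysosomal values was not tested.

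Markers of other cell types differed in both directions. All 9 endothelial markers were above 0, with a median of 0.16 (0.0050 without CNT 2). Their mean signal was low, at 7.66 in CNT and 7.40 in control, against 9.34 and 9.31 over all genes. It deviated by 0.17, 0.29 and -0.07 in CNT 1, 2 and 3, against -0.25, -0.15 and 0.01 in control 1, 2 and 3. Here too control 1 was the lowest array and CNT 3 the lowest CNT array, and the part of these cells in the lysosomal values was not tested. The mean over 20 neuron markers differed by -0.06 ± 0.05 (SE), that over 11 astrocyte markers by -0.08 ± 0.13 (SE) and that over 12 oligodendrocyte lineage markers by 0.07 ± 0.35 (SE). The 16 fibroblast and meningeal markers were all at or below -0.15, with a mean difference of -0.74 ± 0.51 (SE). This depended on CNT 2: the median over the 16 was -0.68 with all arrays and -0.17 without CNT 2, and CNT 3 lay above controls 2 and 3. All 22 interferon response genes were above 0, with a median of 1.99, and their mean deviated by 0.57, 0.99 and 1.38 in CNT 1, 2 and 3, against -1.34, -1.91 and 0.31 in control 1, 2 and 3. None of the genes in these lists passed the adjusted threshold.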

How the data were processed

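RNA (100 ng) from 3 CNT and 3 control cultures was amplified and hybridised to Affymetrix Rat Genome arrays, 1 per culture. The authors deposited log2 values after RMA (version not given in the sources used here) for 31099 probe sets. Their methods name a custom annotation, but the rows carry the manufacturer's probe set identifiers. Probe sets were named from the platform annotation: 20826 had 1 gene, 436 several and 9780 none listed there, and the other 57 were control probe sets, which were left out. Each gene was represented by its single-gene probe set of highest mean, giving 14217 genes.

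CNT and control arrays were compared with limma 3.58.1 (lmFit, eBayes; R 4.3.3), unpaired, with Benjamini-Hochberg adjustment over all genes. The test was run on simulated data first. The members and lists were chosen with earlier results of these data known. Values per array are given for the 12 members with the smallest unadjusted p. The neuron, astrocyte, oligodendrocyte, endothelial, fibroblast and interferon lists are given as list values only. From each other related list up to 3 genes with the smallest unadjusted p are named, and Aif1, Csf1r, Cd68, Igf2r and M6pr whatever their values. Ctsk, Laptm4a, Map2 and Gfap were added after their values were seen. A rank product, after the methods but with all arrays as 1 origin, used 1000 permutations and a proportion of false positives of 0.05. Other alternatives were another scaling or probe set, array weights, leaving out arrays and a replicate block. The labels call the samples biological replicates, and the methods speak of culture series. Arrays carry no read depth, and their number limits the precision. The 5′ to 3′ orientation of the promoter sequences was checked on overlapping windows.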

Additional observations from a re-analysis of the deposited data

How the results depend on the processing

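No lysosomal member passed the limma threshold under any setting tried, and none was called by the rank product, which called 70 genes over all 9 pairs of arrays and 93 over the 3 pairs of equal number. The count of genes past the limma threshold was 0 in all settings but 1, with 2 genes without control 3 and a range of 0 to 2 on leaving out single arrays. At an unadjusted p under 0.05, 2 members were higher with array weights, 2 without control 3 and 1 without CNT 3. Of all 14217 genes 532, 670 and 515 were higher in these settings. The module difference of 0.13 ranged over 0.041 to 0.191 on leaving out 1 array, was 0.171 with median centring and 0.017 without control 1 and CNT 2, the arrays of highest beta-actin 3′ to 5′ difference. Without these 2 arrays the members' median was -0.015, with 14 of 30 above 0. Leaving out 1 array gave medians over the members of 0.020 (control 1), 0.065 (CNT 2), 0.067 (CNT 1), 0.11 (control 2), 0.144 (control 3) and 0.164 (CNT 3). The cause of these shifts was not tested.

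With the replicate number as a block (replicate block), 0 genes and 0 members passed, and the unadjusted count was 498 higher and 179 lower, against 342 and 101 without it. Deviations of equal-numbered arrays correlated at -0.127, 0.361 and 0.513. CNT 1 correlated best with control 2 (0.683), whereas CNT 2 and CNT 3 correlated best with the control of equal number. The 3 deviations of a group sum to 0 for each gene, so these correlations cannot decide a pairing. The arrays were compared unpaired because neither the labels nor the methods say whether equal numbers mark the same culture series. That the methods took each sample as an origin of its own does not settle this.

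The sign of some members turned, among them Ctsd, with 0.29 over all arrays. Without control 1 and CNT 2 the log2 difference was -0.0060 for Cd63, 0.0017 for Mcoln1, -0.078 for Ctsc, 0.50 for Ctsk, -0.032 for Ctsd, -0.074 for Ctsa, -0.14 for Hexa, -0.025 for Glb1, -0.071 for Gusb, -0.089 for Man2b1, -0.17 for Ppt1, -0.027 for Npc2 and -0.079 for Psap. With array weights it was 0.026 for Lamp1, 0.016 for Tpp1 and 0.094 for Gaa. With median centring it was 0.045 for Lamp1, 0.028 for Mcoln1, 0.0091 for Tpp1, 0.041 for Gaa and 0.046 for Sqstm1. After quantile normalization it was 0.0060 for Gaa and 0.0095 for Sqstm1. Averaging the probe sets of a gene gave 0.099 for Lamp1, -0.023 for Man2b1, -0.12 for Asah1 and 0.038 for Sqstm1. The probe set of largest interquartile range gave 0.28 for Lamp1, -0.32 for Asah1 and 0.18 for Sqstm1, which are also values of their other probe sets. Further probe sets gave 0.020 for Lamp1, -0.084 for Man2b1 and 0.14 for Sqstm1.

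On leaving out 1 array the difference ranged over -0.036 to 0.051 for Lamp1, -0.010 to 0.18 for Cd63, -0.33 to 0.017 for Laptm4a, -0.047 to 0.021 for Mcoln1, -0.62 to 0.43 for Ctsk, -0.11 to 0.19 for Gaa, -0.0070 to 0.17 for Glb1, -0.080 to 0.12 for Hexa, -0.031 to 0.16 for Man2b1, -0.0019 to 0.13 for Npc2, -0.080 to 0.28 for Ppt1, -0.038 to 0.25 for Psap, -0.12 to 0.089 for Sqstm1 and -0.12 to 0.054 for Tpp1.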
